A study of Mus musculus with 40 samples.

Results

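The 9 genes described here are widely used markers of mouse neutrophils, the short-lived granulocytes that are first to reach inflamed tissue: S100a8, S100a9, Cxcr2, Csf3r, Il1r2, Mmp8, Retnlg, Ly6g and Cd177. They were taken by symbol, through their Ensembl gene IDs, from tables of 39012 mouse genes, and all 9 of 9 were found. RNA had been sequenced from 40 EMT-6 tumors, 1 library per tumor, in 4 treatment groups of 10. EMT-6 is a mouse mammary carcinoma line; its cells were placed in the mammary pad of Balb/C females aged 8 to 12 weeks, and dosing began 20 days later (day 0) at a mean tumor volume near 400 mm3. Each animal was given 3 intravenous doses (days 0, 1 and 2), and its tumor was collected on day 6.

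The bifunctional group received 492 µg of Anti-PDL1/TGFβ Trap, an antibody against the checkpoint ligand PD-L1 joined to a trap that binds TGF-β. The anti-PD-L1 group received 400 µg of the antibody without the trap. The trap control group received 492 µg of Anti-PDL1(mut)/TGFβ trap, in which the PD-L1 arm is mutated. The isotype control group received 400 µg of an inactive anti-PD-L1 antibody. Every group therefore carried the same tumor line and was given an antibody. The labels name no separate litters, cages or days, and p-values measure the spread between these tumors only.

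The libraries fell into 2 sets by their numbers, which were kept apart. Set 1 (C0449 to C0464) held 6 trap control and 10 isotype control libraries, and set 2 (C0465 to C0488) held 10 bifunctional, 10 anti-PD-L1 and 4 trap control libraries. Totals ran from 13495835 to 25108601 counts in set 1 and from 21987948 to 27658263 counts in set 2. The structural RNAs Rn7s1, Rn7s2, mt-Rnr1 and mt-Rnr2 took 29.7% to 62.3% of the counts in set 1 and 11.7% to 18.0% in set 2. Only the trap control had libraries in both sets, and within each set the numbers run group by group, so that treatment and library order cannot be told apart in either.

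A neutrophil is made in the bone marrow under granulocyte colony-stimulating factor, which acts through the receptor encoded by Csf3r, and it leaves blood for tissue along chemokines that bind CXCR2. S100A8 and S100A9 are small calcium-binding proteins that pair to form calprotectin, a large part of the neutrophil cytosol and an alarm signal once released. Il1r2 encodes a decoy receptor that takes up interleukin-1 without signalling, Mmp8 the neutrophil collagenase, and Retnlg a secreted resistin-like protein. Ly6g and Cd177 encode antigens anchored at the neutrophil surface. In tumors, TGF-β is known as a signal that alters the state of neutrophils. S100a8, S100a9, Csf3r and Il1r2 can also be made by monocytes, and in bulk tumor RNA fewer cells of a type and less RNA per cell cannot be told apart.

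The members differed widely in how much of them was seen. S100a9 had 14515 counts over the 40 libraries, Csf3r 7130, S100a8 5461, Cxcr2 4546, Il1r2 2434 and Mmp8 815, and each of these was counted in all 40 libraries. Retnlg had 391 counts, and both it and Cd177 were counted in 37 of 40 libraries, with medians of 7 and 8 counts. Ly6g (chromosome 15, 75155240 to 75159126, plus strand), the antigen most often used to define mouse neutrophils, had 2 counts in all: 1 in the anti-PD-L1 library C0473 and 1 in the trap control library C0465. The other 38 libraries had 0 counts of Ly6g; a count of 0 allows up to 3 counts, which is 0.0828 to 0.380 CPM (counts scaled to a common library size) depending on the library. Ly6g belongs to a family of very similar genes whose shared reads are assigned by estimate, and it entered no test.

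Several granule genes, which are transcribed while neutrophils mature, were also near 0. Of the primary granule list, Mpo (myeloperoxidase) had 25 counts over all libraries, Elane (neutrophil elastase) 10 and Ms4a3 3. The other genes of that list were seen more often: Prtn3 (proteinase 3) had 349 counts in 32 libraries, Prss57 124 counts in 36 libraries and Ctsg (cathepsin G) 96 counts in 25 libraries. Camp and Ngp, secondary granule genes, had 16 and 37 counts. Lcn2 (lipocalin 2) and Ltf (lactoferrin), also of the secondary granules, had 3062 and 4078 counts. The label of the members as neutrophil genes is that of the chosen list. Among them it rests on the alarmins, the receptors and the rarer Mmp8, Retnlg and Cd177, and not on Ly6g. Whether Ltf and Lcn2 came from neutrophils was not tested.

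Levels can be compared between genes only per length, as TPM, which divides by transcript length and scales every library to the same total. In the bifunctional group the median level was 16.1 TPM for S100a9 and 9.78 TPM for S100a8. The receptors were lower there, at 1.21 TPM for Csf3r, 0.875 TPM for Il1r2 and 0.610 TPM for Cxcr2. Retnlg had a median of 0.395 TPM, Mmp8 of 0.145 TPM and Cd177 of 0.0850 TPM in that group. S100a9 exceeded S100a8 in every one of the 40 libraries, by a TPM ratio of 1.03 to 3.06 with a median of 1.74. The ratio was higher in set 1, with medians of 2.04 in trap control and 2.56 in isotype control libraries, than in set 2, where the group medians were 1.59 in bifunctional, 1.44 in anti-PD-L1 and 1.69 in trap control libraries.

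S100a8 and S100a9 lie close together on chromosome 3 of mm10, S100a8 at 90668978 to 90670035 on the plus strand and S100a9 at 90692632 to 90695721 on the minus strand. Their promoters are shown because the pair moved together most tightly of all members, with those of Retnlg (chromosome 16, 48872621 to 48874496, plus strand), which followed the pair most closely, of Csf3r (chromosome 4, 126024550 to 126044440, plus strand), and of Cd177 (chromosome 7, 24743983 to 24760311, minus strand), which followed the others least. Each line gives the 250 bases before the RefSeq transcription start (GRCm38.p6), 5′ to 3′ on the gene's strand: chr3:90668821-90669070 for S100a8, chr3:90695722-90695971 for S100a9, chr16:48872358-48872607 for Retnlg, chr4:126024409-126024658 for Csf3r and chr7:24760312-24760561 for Cd177. Capitals mark matches to TTNNGNAA, the C/EBP core, on both strands, to GAGGAA, the PU.1 core, on both strands, and to TATAAA on the gene's strand; C/EBP factors and PU.1 drive granulocyte genes.

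S100a8: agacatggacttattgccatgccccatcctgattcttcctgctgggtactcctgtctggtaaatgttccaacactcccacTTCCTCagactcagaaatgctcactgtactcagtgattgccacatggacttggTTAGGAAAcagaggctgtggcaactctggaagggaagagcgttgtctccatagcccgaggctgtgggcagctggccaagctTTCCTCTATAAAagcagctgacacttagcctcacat
S100a9: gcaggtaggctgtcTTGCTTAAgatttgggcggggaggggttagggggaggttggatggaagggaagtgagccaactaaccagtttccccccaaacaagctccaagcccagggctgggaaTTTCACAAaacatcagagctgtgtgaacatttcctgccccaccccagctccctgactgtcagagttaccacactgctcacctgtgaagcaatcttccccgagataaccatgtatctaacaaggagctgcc
Retnlg: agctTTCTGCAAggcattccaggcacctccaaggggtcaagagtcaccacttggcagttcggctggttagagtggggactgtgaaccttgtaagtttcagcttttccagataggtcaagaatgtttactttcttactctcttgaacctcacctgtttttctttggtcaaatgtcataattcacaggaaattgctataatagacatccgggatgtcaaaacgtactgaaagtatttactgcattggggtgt
Csf3r: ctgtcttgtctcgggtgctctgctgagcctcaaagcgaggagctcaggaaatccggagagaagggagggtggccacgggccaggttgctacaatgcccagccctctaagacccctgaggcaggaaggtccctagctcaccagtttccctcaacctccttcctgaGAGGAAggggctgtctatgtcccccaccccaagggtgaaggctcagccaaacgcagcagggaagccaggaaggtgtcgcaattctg
Cd177: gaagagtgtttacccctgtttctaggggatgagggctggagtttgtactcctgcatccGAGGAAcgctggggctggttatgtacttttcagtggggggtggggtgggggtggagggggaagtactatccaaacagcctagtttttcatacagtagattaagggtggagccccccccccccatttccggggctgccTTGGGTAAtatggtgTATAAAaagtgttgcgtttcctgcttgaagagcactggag

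In the S100a8 line the second GAGGAA match, which reads TTCCTC, and the TATAAA match adjoin and print as 1 run of capitals. S100a8 held 1 C/EBP match, 2 PU.1 matches and 1 TATAAA, and S100a9 held 2 C/EBP matches and neither other motif. Retnlg held 1 C/EBP match, Csf3r 1 PU.1 match, and Cd177 1 of each motif. Of 32817 mouse promoters of the same length, 36.8% held the C/EBP letters, 23.3% the PU.1 letters and 7.6% TATAAA. A match describes letters only and is no evidence of a bound factor.

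The calcium-binding alarmins are described first, in CPM scaled over all 40 libraries. S100a8 had 2.07, 4.17 and 16.5 CPM (lowest, median and highest) in bifunctional libraries, against 2.05, 4.87 and 8.46 CPM in anti-PD-L1 libraries. Its 4 trap control libraries of set 2 had 9.46, 8.94, 7.36 and 3.32 CPM. In set 1 the same values were 2.05, 3.39 and 14.8 CPM in trap control and 1.47, 3.08 and 10.4 CPM in isotype control libraries. The groups overlapped in both sets, and single libraries (C0459 in trap control, C0449 in isotype control, C0482 and C0479 in the bifunctional group) lay far above the rest of their groups.

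S100a9 also overlapped between the groups of each set. It had 4.49, 9.97 and 42.0 CPM in bifunctional libraries and 4.52, 10.8 and 27.4 CPM in anti-PD-L1 libraries. The trap control libraries of set 2 had 26.6, 22.9, 16.9 and 9.58 CPM. In set 1 it had 6.90, 10.05 and 46.5 CPM in trap control and 6.35, 10.48 and 31.8 CPM in isotype control libraries. Within each group the highest library held between 2.78 and 9.35 times the level of the lowest.

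Among the receptors, Cxcr2 (chromosome 1, 74153989 to 74161246, plus strand) had a highest library 1.79 to 3.14 times the level of the lowest within each group. It had 2.63, 3.64 and 8.27 CPM in bifunctional libraries, against 1.99, 3.30 and 5.24 CPM in anti-PD-L1 libraries. The trap control libraries of set 2 had 6.26, 3.12, 4.64 and 3.14 CPM. In set 1 its levels were 5.16, 6.04 and 9.26 CPM in trap control and 4.41, 6.90 and 9.25 CPM in isotype control libraries, and all groups within a set overlapped.

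Csf3r had 5.33, 7.01 and 20.6 CPM in bifunctional libraries and 2.86, 5.19 and 10.7 CPM in anti-PD-L1 libraries. The groups overlapped, and each of the 10 bifunctional values exceeded the median of the anti-PD-L1 group. The trap control libraries of set 2 had 9.82, 5.07, 7.33 and 5.82 CPM. In set 1 Csf3r had 5.16, 6.27 and 20.2 CPM in trap control libraries and 4.24, 6.01 and 13.8 CPM in isotype control libraries.

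Il1r2 (chromosome 1, 40074079 to 40125231, plus strand) overlaps an antisense gene, Gm16894, and a short annotated transcript, Gm37347, and no source used here says whether counting used strand, so reads of these genes cannot be told apart. It had 1.31, 2.22 and 9.81 CPM in bifunctional libraries and 1.53, 2.15 and 3.49 CPM in anti-PD-L1 libraries. The trap control libraries of set 2 had 3.09, 3.33, 2.27 and 2.29 CPM. In set 1 it had 1.32, 1.67 and 4.06 CPM in trap control and 0.860, 1.37 and 2.59 CPM in isotype control libraries.

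The granule and secreted members were rarer. Mmp8 (chromosome 9, 7558456 to 7568485, plus strand) had 0.415, 0.656 and 2.17 CPM in bifunctional libraries and 0.3499, 0.640 and 1.09 CPM in anti-PD-L1 libraries. The trap control libraries of set 2 had 4.11, 0.993, 0.940 and 0.617 CPM, which were 113, 28, 29 and 21 counts, so that C0465 alone held most of that group's counts. In set 1 Mmp8 rested on 2 to 5 counts in each trap control library (0.105, 0.344 and 0.634 CPM) and 2 to 27 counts in each isotype control library (0.192, 0.357 and 2.20 CPM).

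Retnlg had 0, 0.364 and 1.38 CPM in bifunctional libraries, against 0.0666, 0.273 and 0.551 CPM in anti-PD-L1 libraries and 0.582, 0.745, 0.454 and 0.264 CPM in the trap control libraries of set 2. In set 1 it had 0, 0.239 and 1.39 CPM in trap control and 0, 0.227 and 1.06 CPM in isotype control libraries. Cd177 had 0.264, 0.532 and 1.32 CPM in bifunctional libraries, 0.0635, 0.457 and 0.977 CPM in anti-PD-L1 libraries and 1.38, 0.248, 0.973 and 0.705 CPM in the trap control libraries of set 2. In set 1 it rested on at most 4 counts in a trap control library and 8 counts in an isotype control library.

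**Figure D1:**
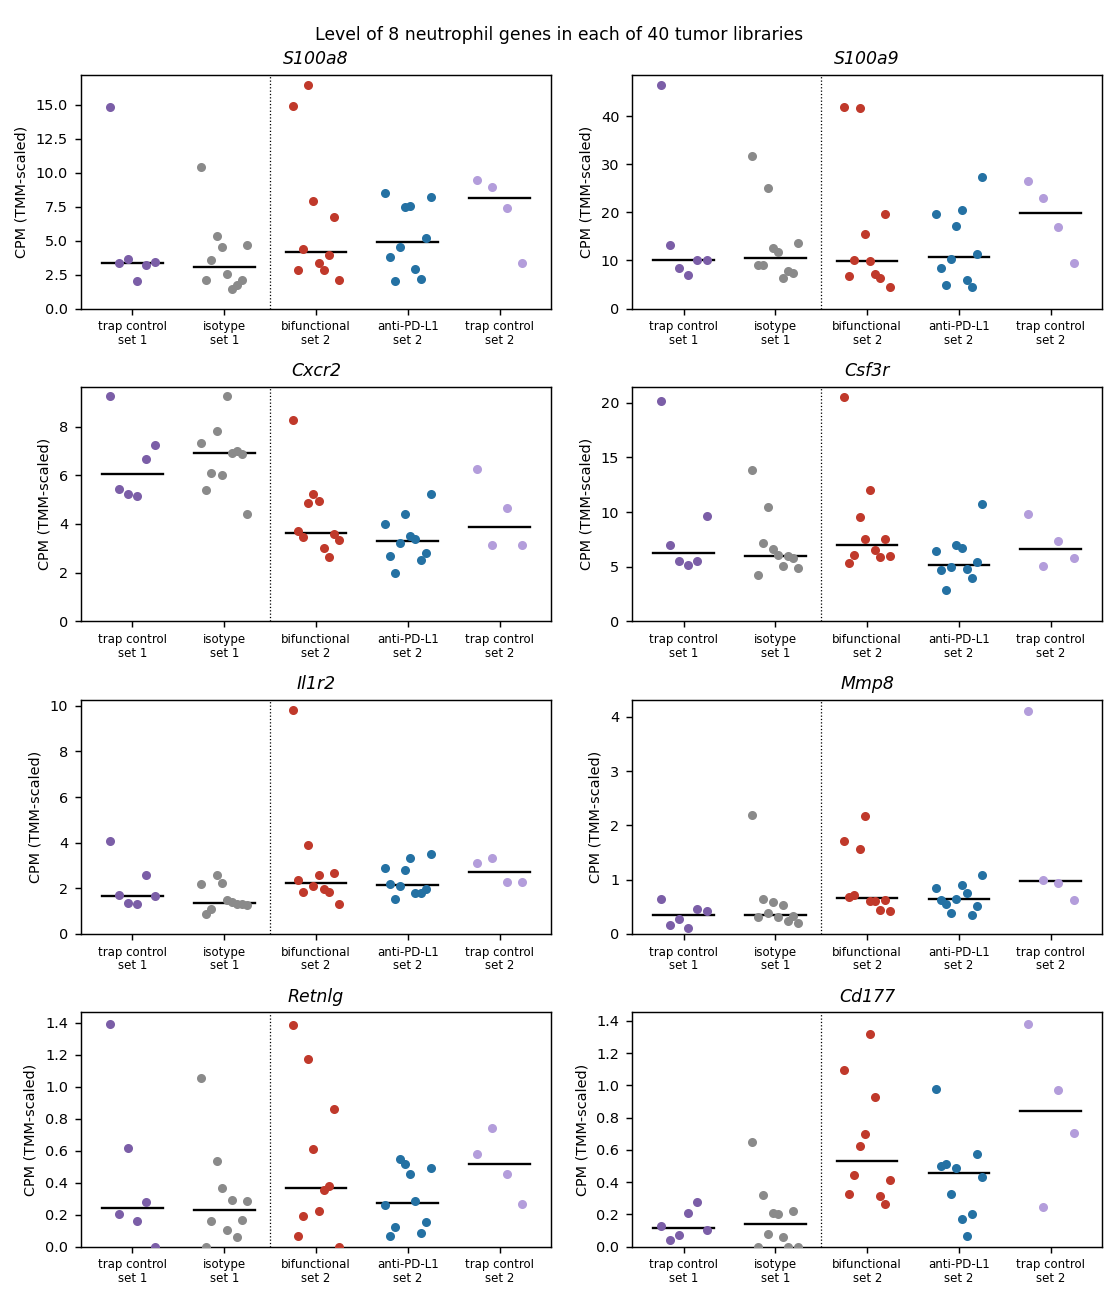
Level of the 8 detected members in each library (points; CPM scaled over all 40 libraries, linear axes from 0), with the group median as a bar; the dotted line parts set 1 from set 2. Groups within a set overlap for every gene, and single libraries stand above the rest of their group, such as C0459 at 46.5 CPM of S100a9.

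The bifunctional agent was set against anti-PD-L1, which asks what the trap arm adds to PD-L1 blockade, within set 2. None of the 8 members tested passed an adjusted p of 0.05 (edgeR's quasi-likelihood F test, Benjamini-Hochberg over all genes), where 25.6% of 15704 genes did. Of the genes called by that test 48.6% were higher in bifunctional tumors. On the log2(TPM + 1) scale 3086 genes were called and 98.6% of them were higher, with the median of all genes itself at 0.15. All 8 log2 fold changes were above 0, between 0.29 and 0.77 with a median of 0.40, against a median of 0.01 over all genes tested. The members varied together between tumors, so their shared sign does not count as 8 separate results. The bifunctional libraries above the anti-PD-L1 median numbered 4 of 10 for S100a8 and for S100a9, and 5 to 10 for the other members tested. Csf3r was the 1 member with an unadjusted p below 0.05. Its log2 fold change was 0.55 (SE 0.234, 95% interval 0.07 to 1.04, p = 0.026, adjusted p = 0.0789).

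The Csf3r difference moved with single libraries. Without the anti-PD-L1 library C0478 it was 0.69 and passed the test (adjusted p = 0.0276), and without the bifunctional libraries C0479 and C0484 it was 0.25 (adjusted p = 0.434). For the alarmins the interval of the log2 fold change was -0.47 to 1.05 for S100a8 and -0.54 to 1.15 for S100a9, so that more than a 2-fold higher level in bifunctional tumors lies within the interval of each. Il1r2 had a log2 fold change of 0.30, and of -0.08 without C0479 and C0484.

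Setting bifunctional and anti-PD-L1 tumors against the trap control of set 2 asks about PD-L1 blockade on top of the trap, and about the exchange of the trap arm for PD-L1 blockade. These comparisons share the 4 trap control libraries. In bifunctional against trap control tumors, 0 of 8 members passed, where 0.00637% of 15704 genes did (1 gene), and none had an unadjusted p below 0.05. Of the 8 members, 5 had a log2 fold change below 0 and 3 above, from -0.82 for Mmp8 to 0.28 for Csf3r.

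In anti-PD-L1 against trap control tumors, 0 of 8 members passed, where 0.0127% of 15704 genes did (2 genes). All 8 log2 fold changes were below 0, between -1.30 and -0.19 with a median of -0.50, against 0.01 over all genes. Here too the members varied together, and the shared sign does not count as 8 separate results. Mmp8 had the lowest value, -1.30 (SE 0.442, p = 0.00716, adjusted p = 0.792), the 1 member with an unadjusted p below 0.05. That value rested on 1 library: without the trap control C0465 the log2 fold change of Mmp8 was -0.35 in this comparison, and 0.14 in bifunctional against trap control tumors.

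The trap control was set against the isotype control within set 1, which asks what the trap does without PD-L1 binding. Of the members, 5 had enough counts to be tested and 0 passed, where 7.34% of 14183 genes did. None had an unadjusted p below 0.05. The log2 fold changes were 0.38 for Il1r2, 0.37 for S100a8, 0.31 for Csf3r, 0.22 for S100a9 and -0.07 for Cxcr2, with adjusted p between 0.389 and 0.819. The interval for Cxcr2 was the narrowest, -0.40 to 0.26, and that for S100a9 ran from -0.67 to 1.10. The trap control library C0459 set the sign for 3 of the 5: without it the log2 fold change was -0.28 for S100a8, -0.45 for S100a9 and -0.09 for Csf3r, and none passed.

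**Figure D2:**
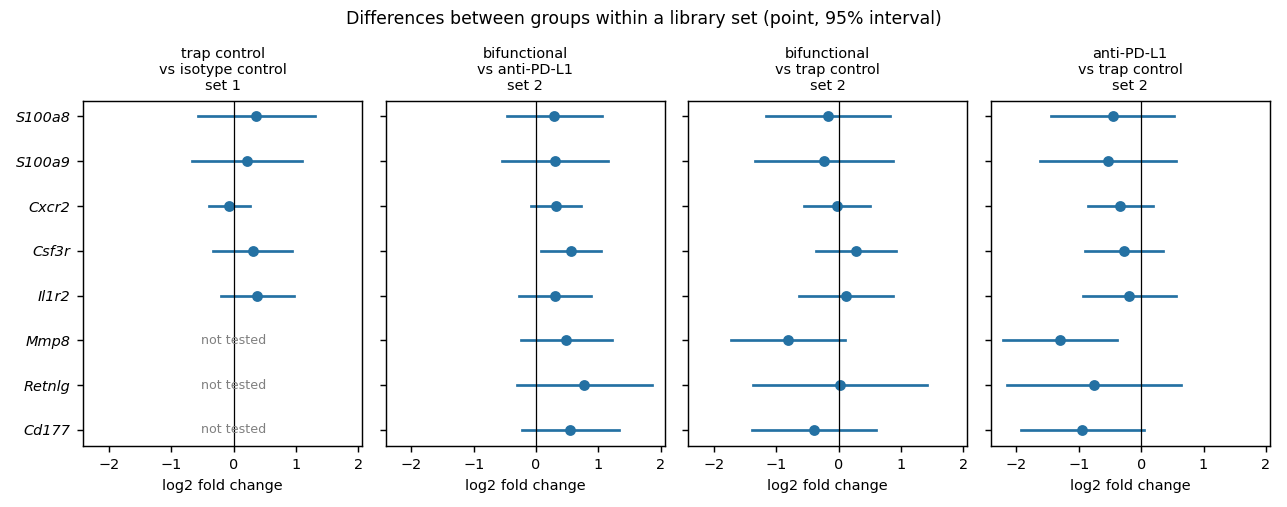
Log2 fold change of each tested member (point) with its 95% interval (bar) in the 4 comparisons made within a library set; the vertical line is at 0. The intervals of Csf3r in bifunctional against anti-PD-L1 tumors (0.07 to 1.04) and of Mmp8 in anti-PD-L1 against trap control tumors (-2.21 to -0.39) leave out 0, and no member passed after adjustment.

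The isotype control could be compared with the set 2 groups only through a fit of all 40 libraries with a term for the set, which the trap control libraries alone determine. The bifunctional and anti-PD-L1 comparisons made this way share the isotype controls. In bifunctional against isotype control tumors 0 of 8 members passed, where 2.55% of 15183 genes did; in anti-PD-L1 against isotype control tumors 0 of 8 passed, where 0.0132% did (2 genes). Mmp8 was the 1 member with an unadjusted p below 0.05 in each. Its log2 fold change was -1.65 in bifunctional tumors (SE 0.718, adjusted p = 0.171) and -2.17 in anti-PD-L1 tumors (SE 0.720, adjusted p = 0.335). Without the trap control library C0465 they were -0.68 in bifunctional and -1.20 in anti-PD-L1 tumors. With no term for the set the sign turned, to 0.75 in bifunctional and 0.24 in anti-PD-L1 tumors.

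In the same fit, the interaction of the arms asks whether the trap's difference depends on PD-L1 binding (bifunctional minus anti-PD-L1, less trap control minus isotype control). None of 8 members passed, where 8.69% of 15183 genes did. Mmp8 had an interaction of 1.38 on the log2 scale (SE 0.661, unadjusted p = 0.0441, adjusted p = 0.169). Over other settings that value ran from -0.16 to 1.38, and with a trap control library left out from 1.15 to 1.61. Isotype control libraries were not left out of this fit. The other 7 members had unadjusted p above 0.05, with values from -0.04 for S100a8 to 0.99 for Cd177.

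The sets themselves differed for 1 member. Set 1 trap control libraries were compared with set 2 trap control libraries, animals given the same agent, and 1 of 7 tested members passed, where 48.4% of 14456 genes did. Mmp8 was lower in set 1, with a log2 fold change of -2.42 (SE 0.625, adjusted p = 0.00797), and -1.45 without C0465 (adjusted p = 0.0286). The groups overlapped by 1 library each, C0459 at 0.634 CPM in set 1 and C0468 at 0.617 CPM in set 2. Cxcr2 had a log2 fold change of 0.60 (unadjusted p = 0.0339, adjusted p = 0.0657). Without C0459, S100a8 (-1.20), S100a9 (-0.95) and Il1r2 (-0.68) also passed. Since 48.4% of all genes passed with every trap control library in the fit, these calls are not read as particular to the members. On the log2(TPM + 1) scale the median of all genes was at -0.65 in this comparison. There 11054 of 14456 genes were called, and all 7 members passed as lower, among them S100a8 at -1.88 and S100a9 at -1.74. At this offset the other 5 lay above that median. Cxcr2 (-0.23) and Csf3r (-0.49) had the opposite sign to that on the count scale. With log2(TPM + 0.1) the median was -1.09, and over the other settings together Il1r2 reached -1.49 and Retnlg -1.40.

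What the members shared was their variation from tumor to tumor. Each level, as log2(CPM + 1), was taken as a deviation from the mean of its group within its set, so that neither treatment nor set enters. Over the 40 libraries, all 28 pairs of the 8 detected members had a positive correlation, from r = 0.17 to 0.96 with a median of 0.64. The pairs share libraries and their scaling, and the values are descriptions. S100a8 and S100a9 stood highest (r = 0.96), followed by S100a8 with Retnlg (0.86), S100a9 with Retnlg (0.83) and S100a9 with Il1r2 (0.83).

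Csf3r followed S100a9 and Cxcr2 at r = 0.81 each. Cd177 was the member least like the rest, at r = 0.17 with Retnlg, 0.29 with S100a8 and with S100a9, and at most 0.50, with Mmp8. In set 1 alone Cd177 reached 0.79 with Mmp8, and in set 2 alone 0.55 with Csf3r. It had a median of 8 counts, and the part of counting error in its values was not tested. In set 1 alone (16 libraries) the 28 pairs ran from 0.27 to 0.95, in set 2 alone (24 libraries) from 0.07 to 0.97, and without C0479 (39 libraries) from 0.09 to 0.96. Taken as log2(TPM + 1), they ran from 0.08 to 0.95 with a median of 0.57.

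**Figure D3:**
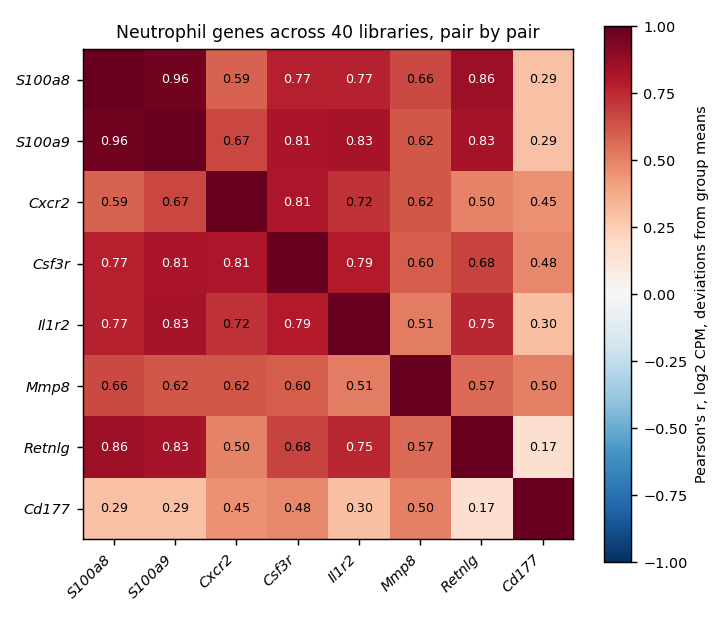
Pearson's r between the 8 detected members over 40 libraries, each level as log2(CPM + 1) less the mean of its group within its set; colour runs from -1 (blue) to 1 (red). S100a8 and S100a9 are the closest pair (0.96) and the row of Cd177 is the palest (0.17 to 0.50).

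Among the genes outside the list whose variation was most like that of the members' mean were Hdc (r = 0.90), Il1b (0.86), Mxd1 (0.85), G0s2 (0.80), Clec4e (0.77), Cxcl2 (0.77) and Osm (0.77), of 12052 genes ranked over 40 libraries. Hdc makes histamine, and Il1b encodes interleukin-1β. Mxd1 is a partner of Max in gene control, Clec4e encodes a receptor for fungal and mycobacterial sugars, Cxcl2 a ligand of CXCR2, and Osm the cytokine oncostatin M. The 99th percentile over all genes ranked was 0.53. Within the sets, Hdc had r = 0.92 in set 1 and 0.89 in set 2, and Osm had 0.70 in set 1 and 0.80 in set 2. Hdc, Mxd1, G0s2, Clec4e, Il1b and Cxcl2 also stood in the pathway lists described below.

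The same few tumors held the highest levels of many members. TPM values of the sets cannot be set side by side, since structural RNA took a larger share of set 1. Summed over the 9 members, the level was 13.7 to 93.2 TPM in bifunctional libraries (median 29.96), 10.9 to 52.3 TPM in anti-PD-L1 libraries (median 25.4) and 20.2 to 60.4 TPM in the trap control libraries of set 2 (median 40.8). In set 1 it was 7.06 to 16.1 TPM in trap control (median 8.00) and 5.41 to 24.8 TPM in isotype control libraries (median 8.31). By CPM, C0479 was the highest bifunctional library for 5 of 8 members, C0478 the highest anti-PD-L1 library for 5, C0465 the highest trap control library of set 2 for 6, and C0449 the highest isotype control library for 6. C0459 was the highest trap control library of set 1 for 7 of 8 members by CPM but for 3 by TPM; structural RNAs took 62.3% of its counts, the most of any library.

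Markers of red blood cells moved with the members. The 5 markers (Hbb-bs, Hbb-bt, Hba-a1, Hba-a2 and Alas2: globins and the first enzyme of heme synthesis in red cells) summed to 38.9 to 273 TPM in bifunctional libraries, 42.2 to 264 TPM in anti-PD-L1 libraries and 63.2 to 125 TPM in the trap control libraries of set 2. In set 1 they summed to 13.2 to 133 TPM in trap control and 13.04 to 188 TPM in isotype control libraries. In 4 of the 5 groups within sets, C0459, C0449, C0479 and C0478 were the highest for both the members and these markers; in the trap control of set 2 the members peaked in C0465 and the markers in C0466.

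With all levels in log2(CPM + 1), as deviations from group means over 40 libraries, the red cell sum had r = 0.73 with Csf3r, 0.73 with S100a9, 0.72 with Retnlg, 0.71 with S100a8, 0.63 with Il1r2, 0.49 with Mmp8, 0.45 with Cxcr2 and 0.28 with Cd177. In log2(TPM + 1) the same values ran from 0.26 for Cd177 to 0.64 for S100a9. The macrophage sum (8 markers, among them Adgre1 and C1qa, all counted in every library) ran from r = 0.03 with Retnlg to 0.35 with Cxcr2 and with Csf3r. In log2(TPM + 1) it had 0.55 with Cxcr2 and 0.41 with Csf3r, where the red cell sum had 0.27 with Cxcr2, and in set 2 alone (CPM) Csf3r had 0.57 with the macrophage sum and 0.60 with the red cell sum. For Cxcr2, which of these sums it followed more closely changed with the scale. Cd177 had 0.30 with the macrophage sum against 0.28 with the red cell sum, and 0.34 against 0.26 in log2(TPM + 1). In log2(TPM + 1) within set 2, Csf3r had 0.59 with the macrophage sum and 0.57 with the red cell sum.

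Other marker sums moved with the members as well. The monocyte sum ran from r = 0.06 with S100a9 to 0.37 with Cd177. In log2(TPM + 1) it had 0.65 with Cxcr2, 0.54 with Csf3r, 0.53 with Cd177 and 0.05 with S100a8. On that scale the red cell sum had 0.27 with Cxcr2, 0.51 with Csf3r and 0.26 with Cd177. In log2(CPM + 1) the eosinophil sum ran from r = 0.30 with Cd177 to 0.55 with S100a9, although its defining genes were near 0 (Epx 3, Prg2 10 and Il5ra 7 counts over all libraries). The adipocyte sum had r = 0.64 with Cd177, above the red cell sum for that gene, and 0.02 with S100a8. Also above the red cell sum for Cd177 were, among others, the mast cell and basophil sum (0.53) and the endothelial sum (0.52). The keratinocyte sum had r = 0.44 with Il1r2, 0.71 in log2(TPM + 1), and -0.16 (CPM) without C0479. With S100a8 the keratinocyte sum had r = 0.05. The endothelial sum had r = 0.44 with Cxcr2, and 0.72 in log2(TPM + 1). The fibroblast sum went the other way with S100a8, at r = -0.35. The share of structural RNA also moved with the members. S100a8 had r = 0.75 in set 1 (16 libraries) and 0.60 in set 2 (24 libraries) by CPM, and 0.41 and 0.51 by TPM. By CPM Retnlg had 0.60 and 0.43, Csf3r 0.52 and 0.42, and Il1r2 0.51 and 0.54. Cxcr2 had 0.15 and 0.34 by CPM, and -0.69 and 0.10 by TPM. The part of blood content, of other cell types, or of RNA composition, in the members' levels was not tested.

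**Figure D4:**
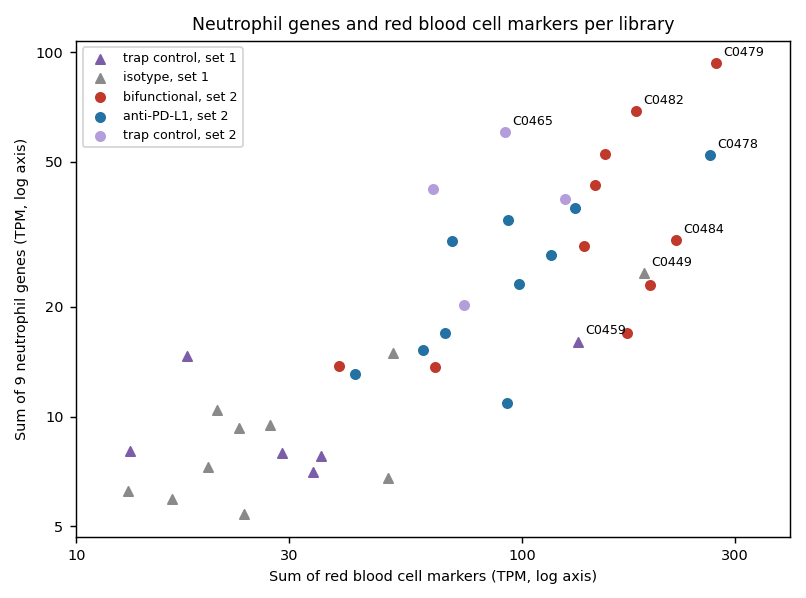
Sum of the 9 members (vertical, TPM) against the sum of 5 red blood cell markers (horizontal, TPM) in each of the 40 libraries, both on log axes; circles are set 2 and triangles set 1, coloured by group, with the libraries named in the text labelled. C0479 has the highest values of both sums in set 2 (93.2 and 273 TPM), and C0459 and C0449 stand apart from the other set 1 libraries along the red cell axis. The distance between circles and triangles is not to be read, since structural RNA took a larger share of set 1.

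The wider neutrophil pathway was read from 10 lists of 83 genes. In bifunctional against anti-PD-L1 tumors 66 of them were tested; 16 were higher and 0 lower, with a median log2 fold change of 0.33. These calls are 24.2% of the genes tested, near the 25.6% called among all genes; calls in the higher direction alone made 12.4% of all genes tested. The lists named next are small, and nothing particular to a list is read from its count beside those shares. Of 20 tested genes of mature neutrophils, 9 were higher, among them Fpr2 (0.72, adjusted p = 0.00896), a receptor for formylated and other peptides, and Asprv1 (4.17, adjusted p = 0.0126), a protease also known from skin. Of 7 tested secondary and tertiary granule genes 1 was higher, Cybb (0.65, adjusted p = 0.00875), the catalytic subunit of the phagocyte oxidase. Among 4 tested granulocyte transcription factors 3 were higher: Spi1, which encodes PU.1 (0.47, adjusted p = 0.0207), Cebpd (0.56, adjusted p = 0.0234) and Cebpa (0.73, adjusted p = 0.0333).

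Among 8 adhesion and recruitment genes 3 were higher in bifunctional than in anti-PD-L1 tumors: the integrin gene Itgam (0.54, adjusted p = 0.0112), the selectin ligand gene Selplg (0.47, adjusted p = 0.0172) and Icam1 (0.53, adjusted p = 0.0328). None of the 7 tested genes of the CXCR2 ligand list passed, which also holds the related platelet chemokine Pf4, not itself known as a CXCR2 ligand, nor did any of 3 growth factors, 8 interleukin-1 pathway genes, 5 oxidase and trap-forming genes, 3 S100 receptors or the 1 tested primary granule gene. The ligands Cxcl1 and Cxcl2 had log2 fold changes of -0.11 (SE 0.375) and 0.32 (SE 0.499).

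Many of these genes are also made by macrophages or other cells, and other markers moved with them. Of 8 macrophage markers 6 passed and were higher, where 25.6% of all genes were called. The macrophage sum was 145 to 523 TPM in bifunctional libraries and 121 to 232 TPM in anti-PD-L1 libraries. Higher too were Cd4 (1.60) of T cells, Ctla4 (1.80) of regulatory T cells, Ncr1 (1.25) of NK cells and Cd79b (1.72) of B cells. So were Pdgfra (0.75) of fibroblasts, Vwf (1.49) of endothelium, Krt5 (4.77) of keratinocytes and Tnnt3 (4.74) of skeletal muscle. The tumor epithelial marker Krt8 was lower (-0.59). The macrophage count is not read as particular to macrophages. C0479 held 479.04 TPM of keratinocyte markers, where the bifunctional median was 1.90 TPM, and C0484 held 515 TPM of adipocyte markers, where the median was 41.0 TPM. Without these 2 libraries, 2 of 65 pathway genes passed, Cybb (0.61) and Fpr2 (0.53), and Asprv1 was at -0.03. Without C0479 alone 7 passed, and without C0484 alone 11. Calls over all genes fell too, from 4014 with all set 2 libraries to 760 without both. The fall in the pathway count is therefore not read as particular to the pathway. The part of other cell types in these differences was not tested.

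In the other treatment comparisons the share of pathway genes that passed was below that of all genes, or 0. In trap control against isotype control tumors of set 1 the 1 call of 54 tested was Il1rap, the interleukin-1 co-receptor, which was lower (-0.54, adjusted p = 0.0357), where 7.34% of all genes passed. It was not called under 11 of 24 alternatives, among them no filter, both TPM offsets, and leaving out any of 8 single libraries. Neither comparison with the trap control of set 2 gave a call among 66 tested. In bifunctional against isotype control tumors 1 of 63 passed, Itgam (0.89, adjusted p = 0.0458), where 2.55% of all genes did, and it was not called under 12 of 19 alternatives, both TPM offsets and leaving out C0466 among them. In anti-PD-L1 against isotype control tumors 0 of 63 passed. The interaction passed for 3 of 63, where 8.69% of all genes passed: Il1r1 (0.94, adjusted p = 0.0308), Tlr4 (0.69, adjusted p = 0.0317), a receptor for S100A8 and S100A9, and Il1rap (0.52, adjusted p = 0.0461). Of 19 alternatives, 6 did not call Il1r1, 7 did not call Tlr4 and 12 did not call Il1rap.

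Pathway genes also differed between the library sets. In trap control libraries of set 1 against those of set 2, 20 of 59 passed (33.9%), 1 higher and 19 lower, where 48.4% of all genes passed, and the median log2 fold change was -0.47. Among the lower ones were the secondary granule genes Ltf (-4.12, adjusted p = 0.002) and Lcn2 (-2.60, adjusted p = 0.0014), and Hp (-3.72, adjusted p = 0.00587), which encodes haptoglobin. The higher one was Ager (1.38, adjusted p = 0.0171), the receptor RAGE, which binds S100 proteins. Without C0465 the calls were 2 higher and 12 lower, and on the log2(TPM + 1) scale 0 higher and 57 lower. With so many of all genes called between the sets, these counts are not read as particular to the pathway.

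**Figure D5:**
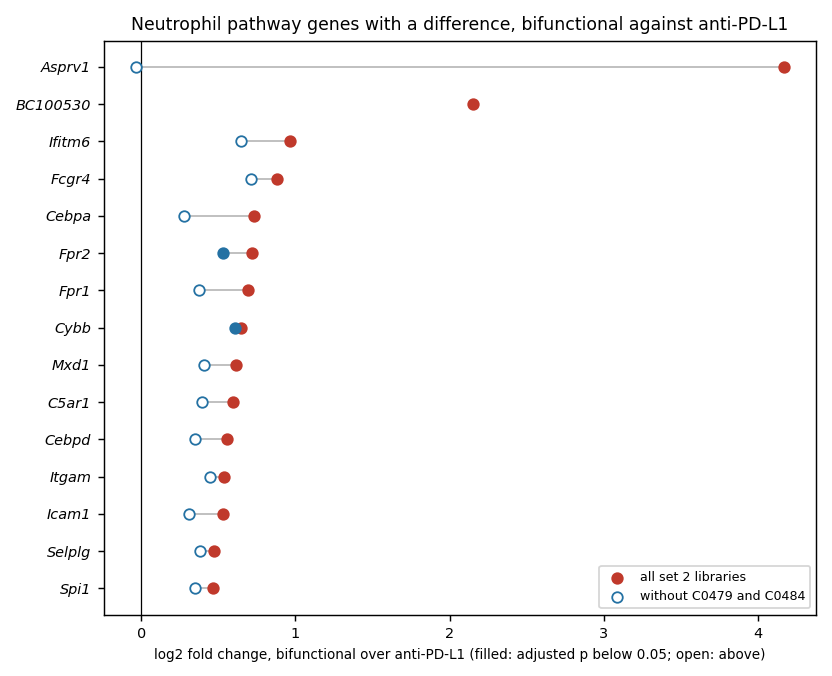
Log2 fold change in bifunctional against anti-PD-L1 tumors of 15 of the 16 pathway genes that passed the test, with all set 2 libraries in the fit (red) and without C0479 and C0484 (blue), filled where the adjusted p was below 0.05 and open where it was above; BC100530 was not tested in the second fit. Cybb and Fpr2 are filled in both, and Asprv1 moves from 4.17 to -0.03. Calls over all genes also fell between these fits.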

How the data were processed

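RNA from 40 snap-frozen EMT-6 tumors was sequenced after ribosomal depletion with random priming, per the labels' protocols. RSEM 1.2.31, Bowtie2 2.3.1 and mm10 are named in the submitters' processing notes; annotation release and strand setting are not given in the sources used here. The authors deposited a table of expected counts (estimated counts that share reads mapping to several genes; 14.0% of values were not whole). The authors also deposited a table of TPM values, made by dividing by transcript length and scaling each library to one total. Symbols came from the reference tables for 37607 of 39012 gene IDs (96.4%).

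The counts were rounded and tested with edgeR 4.0.16 in R 4.3.3 (TMM scaling, a filter on low counts by group, quasi-likelihood F test, Benjamini-Hochberg over all genes tested, threshold 0.05). Set 1, set 2 and the trap control libraries of both sets were fitted apart; comparisons with the isotype control across sets used all 40 libraries with group and set terms. CPM values are TMM-scaled over all libraries. Alternatives used DESeq2 1.42.0, limma 3.58.1 on log2(TPM + 1) and log2(TPM + 0.1), other filters and scalings, and libraries left out. Scripts were tested on simulated counts. Floors cover counting error only.

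The members and the 29 lists, 4 of members and 25 others (10 pathway and 15 cell type marker lists), were chosen with earlier results of these data known. Named are all 9 members, up to 3 genes per list that pass, markers that move with a result, and the 8 genes most like the members' mean with a mean of at least 1 CPM; predicted genes, small RNAs and pseudogenes were left out of those 8. The granule genes given by their total counts, Cxcl1 and Cxcl2 fall outside this rule and were named after their values were seen. Of the genes the rule names, 1 is not reported here.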

Additional observations from a re-analysis of the deposited data

Results flagged for a closer look

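For the 8 detected members, 40 combinations of gene and group within its set were searched for a library that lay apart from the rest of its group, by the gap to the nearest library as a share of the group's range (Dixon's 95% values). It marked 12 of the 40. The share of about 1 in 20 marked by chance holds for normally distributed values. Linear CPM values reach further above their median than below it, so the 12 are not read against that share. In set 1, the trap control library C0459 stood above its group for S100a8 (14.8 CPM), S100a9 (46.5 CPM) and Csf3r (20.2 CPM). The isotype control library C0449 stood above its group for S100a8 (10.4 CPM), Mmp8 (2.20 CPM), Retnlg (1.06 CPM) and Cd177 (0.651 CPM).

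In set 2, the bifunctional library C0479 stood above its group for Cxcr2 (8.27 CPM), Csf3r (20.6 CPM) and Il1r2 (9.81 CPM). The anti-PD-L1 library C0478 stood above its group for Csf3r (10.7 CPM), and the trap control library C0465 for Mmp8 (4.11 CPM). All 12 were high values, which the linear scale favours, and no low library was marked. These flags repeat over genes that vary together and are not independent of each other.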

How the results depend on the processing

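Over the members' log2 fold changes, 504 of 519 values under other settings and 769 of 774 with a library left out kept their side of the threshold. Of all these values, 42 and 43 changed sign, counting those below the threshold both times. In the comparisons fitted with a set term, only trap control libraries were left out in turn. The 1 call of a member, Mmp8 between trap control sets, held wherever Mmp8 was tested; at a mean of at least 1 CPM it was not tested. Of the other values 11 and 5 gained a call, and 4 reversed. For trap control between sets, log2(TPM + 1) gave -0.23 for Cxcr2 and -0.49 for Csf3r, and log2(TPM + 0.1) gave -1.01 for Csf3r; Cd177 was 1.85 in bifunctional against isotype control tumors with no set term.

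Members called between trap control sets numbered 2 with no filter, DESeq2 or all 40 libraries, 0 at a mean of at least 1 CPM, 7 with log2(TPM + 1) and 6 with log2(TPM + 0.1), and 1 to 4 with a library left out. Of all genes 48.4% were called there before any setting was changed, so these counts are not read as particular to the members. With no set term, 3 members were called in bifunctional and 1 in anti-PD-L1 against isotype control tumors. In bifunctional against anti-PD-L1 tumors 0 to 1 were called with a library left out.

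Genes called in trap control against isotype control tumors numbered 400 with no filter, 1746 with DESeq2, 2 with either TPM offset, 1576 with all 40 libraries, and 421 to 1381 with a library left out. In bifunctional against anti-PD-L1 tumors they numbered 760 without C0479 and C0484, and 2141 to 5242 with a library left out. In bifunctional against trap control tumors they numbered 200 with DESeq2, 0 with no filter, either TPM offset, only the groups compared, all 40 libraries, or without C0479 and C0484, and 0 to 176 with a library left out. In anti-PD-L1 against trap control tumors they numbered 1 with all 40 libraries, 0 with no filter, either TPM offset or only the groups compared, and 0 to 2 with a library left out.

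Between trap control sets the genes called numbered 11054 with log2(TPM + 1) and 10840 with log2(TPM + 0.1). In bifunctional against isotype control tumors they numbered 43 with no filter, 894 with DESeq2, 0 with either TPM offset, 47 without C0479 and C0484, 9813 with no set term, and 1 to 628 with a trap control library left out. In anti-PD-L1 against isotype control tumors they numbered 0 with no filter or either TPM offset, 30 with DESeq2, 9664 with no set term, and 0 to 2 with a trap control library left out. For the interaction they numbered 713 with no filter, 59 with log2(TPM + 1), 33 with log2(TPM + 0.1), 545 without C0479 and C0484, 3920 with no set term, and 530 to 1758 with a trap control library left out. The cause was not tested, beyond the shift of the median of all genes on the TPM scales, by -0.65 and -1.09 between trap control sets and by 0.15 and 0.27 in bifunctional against anti-PD-L1 tumors.

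Mmp8, Retnlg and Cd177 rest on few counts. Ly6g had 2 counts in all and entered no test, and the reason for its low count was not tested. No paired analysis was possible because the groups share no replicate numbers.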
